A study of Mus musculus with 6 samples.

Results

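Cytochrome oxidase, complex IV of the mitochondrial respiratory chain, passes electrons from cytochrome c to oxygen and pumps protons across the inner membrane. Its catalytic core is encoded by mitochondrial DNA, and the surrounding subunits are encoded in the nucleus, several of them by paired genes. One isoform of such a pair is used in most tissues, and the other is known mainly from muscle, testis or lung. The 10 genes described here are the isoform genes of subunits 4, 6a, 6b, 7a and 8 (Cox4i1, Cox4i2, Cox6a1, Cox6a2, Cox6b1, Cox6b2, Cox7a1, Cox7a2, Cox7a2l and Cox8a). They were chosen by gene name among the 53700 Ensembl genes of the deposited matrix, which lists 60193 genes in all.

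The libraries came from metaphase II (MII) oocytes of ICR mice, an outbred stock, at 42-45 weeks of age. All donors had received PMSG, a gonadotropin that stimulates follicle growth. The 3 IVM libraries held germinal vesicle oocytes stripped of cumulus cells and then cultured in M16 medium for 12 h, and the 3 IVO libraries held ovulated oocytes taken from the oviduct 14 h after hCG and freed of cumulus cells with hyaluronidase. Hormone, surroundings, time and the removal of cumulus cells therefore differed together and cannot be told apart. Each library pooled 20 oocytes from 3 mice. All 10 oocyte markers listed reached at least 1 FPKM in every library. By the test described below 4 of them were called lower in IVO, beside 17.9% of all tested genes, and none higher, beside 0.606%. These were the egg coat genes Zp2 (log2FC -3.69), Zp3 (-3.13) and Zp1 (-2.43) and the maternal effect gene Nlrp5 (-1.99), while Gdf9, Bmp15, Dppa3, Ooep, Oosp1 and Mos were not called. The summed FPKM of 12 cumulus and granulosa cell markers was 25.1 to 35.6 in IVM and 32.9 to 37.4 in IVO libraries. Of these, 3 reached 1 FPKM throughout, Cyp19a1 (16.25 to 23.13 FPKM over the 6 libraries), Fshr (6.14 to 16.3 FPKM) and Kitl (1.14 to 2.5 FPKM). Amh, Foxl2, Star and Ptx3 were listed at 0 or below 0.2 FPKM. Among the low ones Has2, Ptx3 and Tnfaip6, genes of the expanding cumulus, were higher in IVO without overlap (Tnfaip6 0, 0.14 and 0.03 FPKM in IVM and 0.34, 0.49 and 0.45 FPKM in IVO). None of the 12 was lower without overlap, and 42.2% of all tested genes did not overlap. Ptgs2 overlapped (0.04, 0.19 and 0.06 FPKM in IVM and 0.50, 0.16 and 0.42 FPKM in IVO), as did Inha (0.86, 0.16 and 0.69 FPKM and 0.14, 0.41 and 0.09 FPKM). The part of either marker list in the results below was not tested.

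Expression is given as FPKM, the fragments of a gene divided by its transcript length and by the size of the library, a level per length that allows genes to be set side by side. The depth inferred from the steps between low values was 16500000 to 19160000 fragments in IVM and 17840000 to 18160000 in IVO libraries. Fragments inferred the same way averaged 207 ± 9.85 bases in the IVM and 257 ± 12.1 bases in the IVO libraries (SD, n = 3 each), without overlap. The part of this length difference in the results below was not tested. Values with each library's trend with gene length removed, or without length normalization, are given beside the results they change most and in the closing section.

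Differences between the groups (IVO minus IVM) were tested by limma on log2(FPKM + 1) over 18818 genes, and a gene was called at a log2FC of at least 1 in size and an adjusted p under 0.05. Of the 10 isoform genes 9 were tested, and Cox7a1 lay below the minimum mean of 1 FPKM. Cox4i1, Cox4i2, Cox6a1, Cox6b1 and Cox7a2 were called lower in IVO, 5 of 9, where 17.9% of all tested genes were called lower. None was called higher, where 0.606% of all tested genes were. At an unadjusted p under 0.05 the count was 6, since Cox6a2 joined the others. The share of all tested genes at this looser threshold was not determined, so this count cannot be set against a background. The 3 values of each group were fully separate in 8 of the 9 genes, all but Cox7a2l, where 42.2% of all tested genes did not overlap. The median log2FC of the 9 was -1.17, beside -0.30 over all tested genes. The latter was -0.04 after median-ratio scaling and 0.17 after quantile normalization, and log2FC near 0 change sign with it. In pooled oocytes, fewer oocytes carrying a transcript and less of it in each cannot be told apart.

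**Figure D1:**
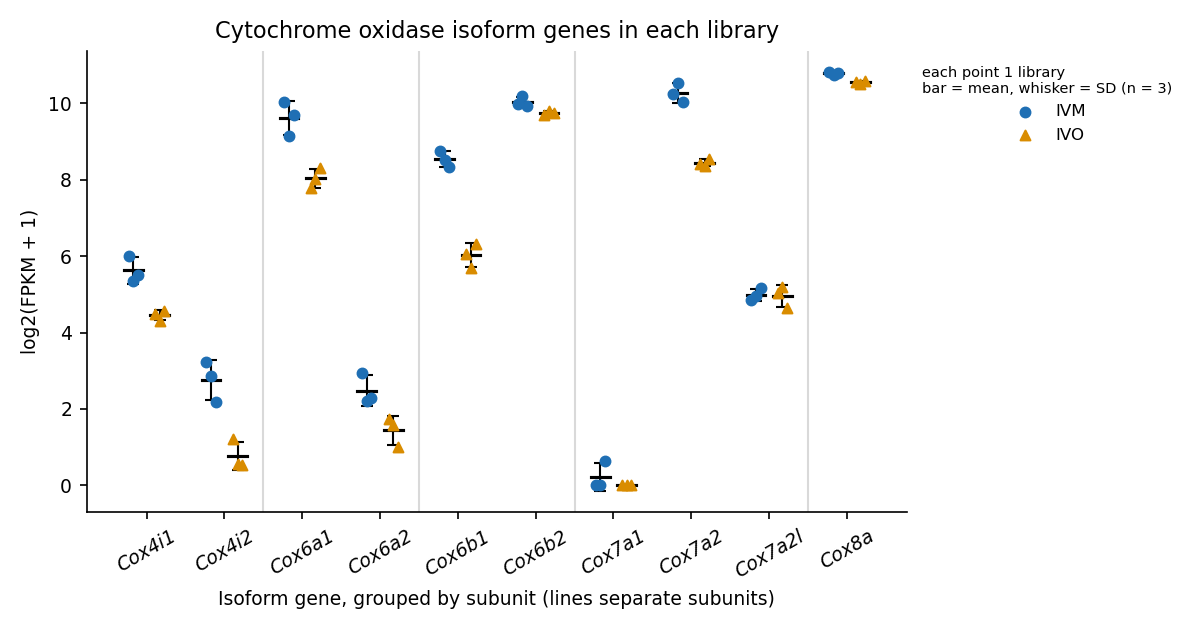
The y axis gives log2(FPKM + 1) of each isoform gene (x axis) in each IVM library (circles) and IVO library (triangles), with the mean and SD of 3. The groups are separate in all tested genes but Cox7a2l, and the widest gap between means is that of Cox6b1, with a log2FC of -2.51.

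Subunit 6b sits at the face of the enzyme towards the intermembrane space, where the monomers of the dimeric complex meet. Cox6b1 is its widely used isoform and Cox6b2 the isoform known from testis. Cox6b1 lies on the minus strand of chromosome 7 of GRCm39 (chr7:30316282-30325616, 4 exons) and Cox6b2 on the same strand (chr7:4754789-4756093, 4 exons). Their coding sequences were 64.6% identical over 257 aligned bases, and the longest run shared by the reference transcripts was 14 bases, so the pair are distinct along their length. They are shown because the log2 ratio of the isoforms differed most between the groups in this pair. Capitals mark bases that differ from the other gene or have no counterpart in it.
Cox6b1: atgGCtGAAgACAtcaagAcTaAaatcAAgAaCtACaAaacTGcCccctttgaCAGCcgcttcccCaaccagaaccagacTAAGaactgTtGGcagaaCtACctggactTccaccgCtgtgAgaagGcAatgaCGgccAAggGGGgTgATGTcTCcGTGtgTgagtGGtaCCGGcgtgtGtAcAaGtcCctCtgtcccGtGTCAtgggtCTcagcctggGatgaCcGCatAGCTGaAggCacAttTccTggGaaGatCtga
Cox6b2: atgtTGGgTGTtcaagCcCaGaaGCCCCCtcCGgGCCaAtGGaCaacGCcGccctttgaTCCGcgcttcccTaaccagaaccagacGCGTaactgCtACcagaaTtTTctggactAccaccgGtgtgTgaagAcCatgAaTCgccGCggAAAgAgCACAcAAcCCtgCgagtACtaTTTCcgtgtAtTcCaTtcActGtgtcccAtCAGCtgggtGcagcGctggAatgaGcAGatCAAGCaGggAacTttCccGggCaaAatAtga

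Cox6b1 had 428, 367 and 322 FPKM in the IVM libraries and 65.6, 50.6 and 79.3 FPKM in the IVO libraries. The lowest IVM library lay far above the highest IVO library. The log2FC was -2.51 (SE 0.22, adjusted p = 0.00119 from limma), the most negative of the isoform genes. Cox6b2, in contrast, had 1005, 1166 and 973 FPKM in IVM and 822, 891 and 863 FPKM in IVO. These values also did not overlap, but the log2FC of -0.28 (95% interval -0.61 to 0.05, adjusted p = 0.192 from limma) was not called. Cox6b2 has the shortest listed transcript of the 10 genes, 391 bases, and its log2FC depended on how length and library scale were treated. It was 0.65 (adjusted p = 0.0245 from limma) with the gene-length trend removed and 0.04 with median-ratio scaling, which changes library scale alone. From inferred fragment numbers without length normalization it was -0.73 (adjusted p = 0.016 from limma). These numbers are FPKM multiplied by an inferred effective length, 174 to 193 bases in IVM and 124 to 148 bases in IVO. The inference used genes of 500 to 4000 bases, so the value of -0.73 is approximate.

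Cox6b2 was thus the more abundant isoform per length in all 6 libraries. Its share of the summed Cox6b1 and Cox6b2 FPKM was 70.1%, 76.1% and 75.1% in IVM and 92.6%, 94.6% and 91.6% in IVO. Of inferred fragments, without division by length, it held 55.9% ± 4.69 in IVM and 83.2% ± 3.12 in IVO (SD, n = 3 each), also without overlap. The log2 ratio of Cox6b1 to Cox6b2 within a library was -1.50 ± 0.23 in IVM and -3.72 ± 0.35 in IVO (SD, n = 3 each). The difference of -2.23 was the largest of the 6 paralog pairs compared, and it ranged from -2.52 to -1.93 over the 14 alternatives, the gene-length ones included. An exact two-sided permutation test gave p = 0.1, the smallest that 3 against 3 libraries allow, and 0.2 after adjustment over the 6 pairs. No pair could therefore pass the threshold by this test.

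**Figure D2:**
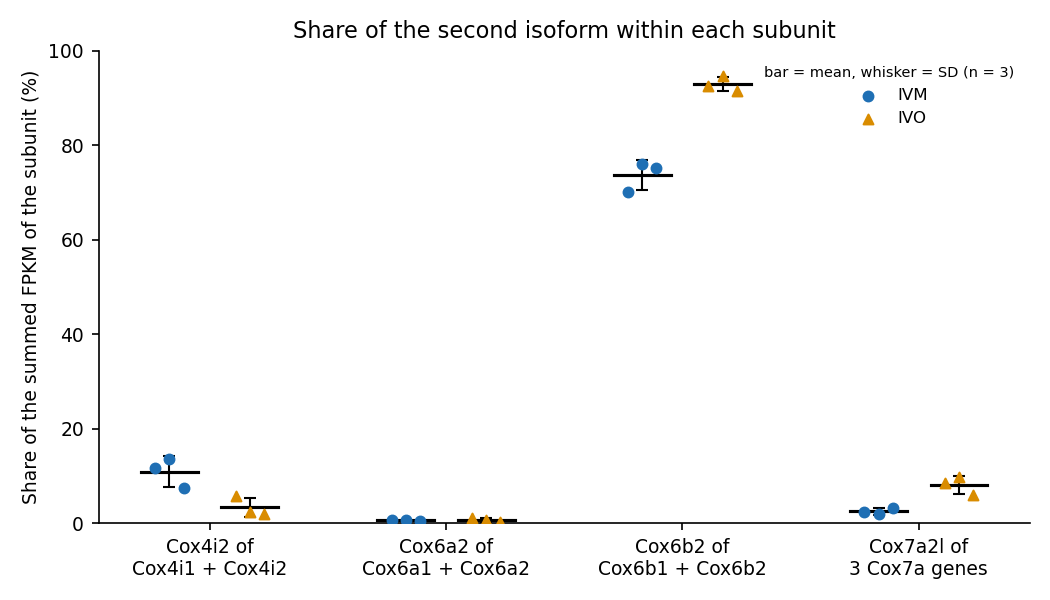
The y axis gives the percent of a subunit's summed FPKM held by the isoform named on the x axis, for each IVM library (circles) and IVO library (triangles), with the mean and SD of 3. The Cox6b2 share is at most 76.1% in IVM and at least 91.6% in IVO, and the Cox6a2 shares overlap.

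Subunit 7a lies in the membrane at the contact between complex IV and its partners. Cox7a1 is its heart and skeletal muscle isoform, Cox7a2 the isoform of most tissues, and Cox7a2l (also called SCAF1) a relative that joins complex III to complex IV in supercomplexes. Cox7a2 (minus strand, chr9:79653049-79667162) had 1216, 1477 and 1042 FPKM in IVM and 342, 328 and 373 FPKM in IVO. Again the lowest IVM library lay far above the highest IVO library. The log2FC was -1.82 (SE 0.17, adjusted p = 0.00136 from limma).

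Cox7a1 (plus strand, chr7:29883569-29885503), the muscle isoform, was listed at 0 in 5 of 6 libraries and at 0.55 FPKM in IVM 3, which corresponds to about 3 fragments. A count of 0 allows up to 3 fragments, or 0.554 to 0.758 FPKM for this gene. Cox7a1 was therefore at or near this floor in every library, and no fold is given. The 2 pairs with Cox7a1, though counted among the 6, have ratios that rest on the pseudocount and carry no information on Cox7a1.

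Cox7a2l (minus strand, chr17:83765970-83824759) had 28.1, 29.8 and 34.9 FPKM in IVM and 32.0, 35.6 and 24.03 FPKM in IVO. The groups overlapped, and the log2FC of -0.03 had a 95% interval from -0.54 to 0.48 (adjusted p = 0.938 from limma). Its sign changed to 0.29 with median-ratio scaling, 0.44 with quantile normalization, 0.35 with the gene-length trend removed, 0.06 without IVM 3 and 0.13 without IVO 3. Its share of the summed FPKM of the 3 Cox7a genes was 2.49% ± 0.662 in IVM and 8.13% ± 1.90 in IVO (SD, n = 3 each). The log2 ratio of Cox7a2 to Cox7a2l was 5.28 ± 0.37 in IVM and 3.48 ± 0.38 in IVO (SD, n = 3 each), without overlap (difference -1.79, exact permutation p = 0.1, adjusted 0.2).

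The level of Cox7a2l is uncertain. It shares 89 exonic bases with Eml4 on the opposite strand (18.4 to 46.9 FPKM over the 6 libraries). A longer stretch, 727 exonic bases, is shared with Gm66623, an opposite-strand long noncoding RNA without a row in the matrix. A transcribed processed pseudogene, Gm6969 (chr12:24688668-24689009), carries nearly the same sequence as Cox7a2l. Of the 336 coding bases of Cox7a2l, 334 were identical in Gm6969, which had 6 extra bases in one place, and the longest shared run was 213 bases. The reference genome is that of C57BL/6J, a strain known for a shortened Cox7a2l allele, and the allele of the ICR mice was not examined. Both sequences are shown because reads from one could be assigned to the other, from base 154 of each to the end, since the bases before are identical, and capitals mark where they differ.
Cox7a2l: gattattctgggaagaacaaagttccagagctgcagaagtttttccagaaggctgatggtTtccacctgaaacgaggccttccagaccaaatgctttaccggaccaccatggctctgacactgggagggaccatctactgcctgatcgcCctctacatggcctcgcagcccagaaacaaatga
Gm6969: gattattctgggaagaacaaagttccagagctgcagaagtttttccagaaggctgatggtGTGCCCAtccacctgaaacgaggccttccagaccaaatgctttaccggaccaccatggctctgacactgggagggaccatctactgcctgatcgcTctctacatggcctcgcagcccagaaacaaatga

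Gm6969 was listed at 172, 182 and 207 FPKM in IVM and at 236, 285 and 209 FPKM in IVO, above Cox7a2l in every library. This order rests on the division by length. With 342 listed bases, Gm6969 has an inferred effective length of only 75 to 144 bases. By this inference it had fewer fragments than Cox7a2l in all 6 libraries. The numbers were computed back from FPKM, with depth and mean fragment length inferred on genes of 500 to 4000 bases. Gm6969 is shorter than these, so its order beside Cox7a2l in fragments is not settled either. Its fragments numbered about 355, 484 and 561 in IVM and 321, 437 and 370 in IVO, beside about 423, 528 and 613 and then 501, 559 and 380 for Cox7a2l. The log2FC of Gm6969 on FPKM, 0.37 (SE 0.18, adjusted p = 0.185 from limma), was not called.

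Gm6969 held 85.8% ± 0.229 of the summed FPKM of both genes in IVM and 88.9% ± 0.840 in IVO (SD, n = 3 each). Of their fragments it held 47.1% ± 1.26 in IVM and 44.1% ± 5.14 in IVO (SD, n = 3 each), with overlap, so neither the size of this share nor its direction is settled. With the copy added, the log2FC of Cox7a2l was 0.32 (adjusted p = 0.247 from limma), still not called, and the difference in the Cox7a2 to Cox7a2l ratio was -2.15. The share of Cox7a2l with its copy in the subunit's summed FPKM was 15.2% ± 3.26 in IVM and 43.9% ± 5.47 in IVO (SD, n = 3 each). In fragments this share was 8.93% ± 2.23 in IVM and 25.4% ± 4.11 in IVO (SD, n = 3 each), lower in size but again separate between the groups.

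**Figure D3:**
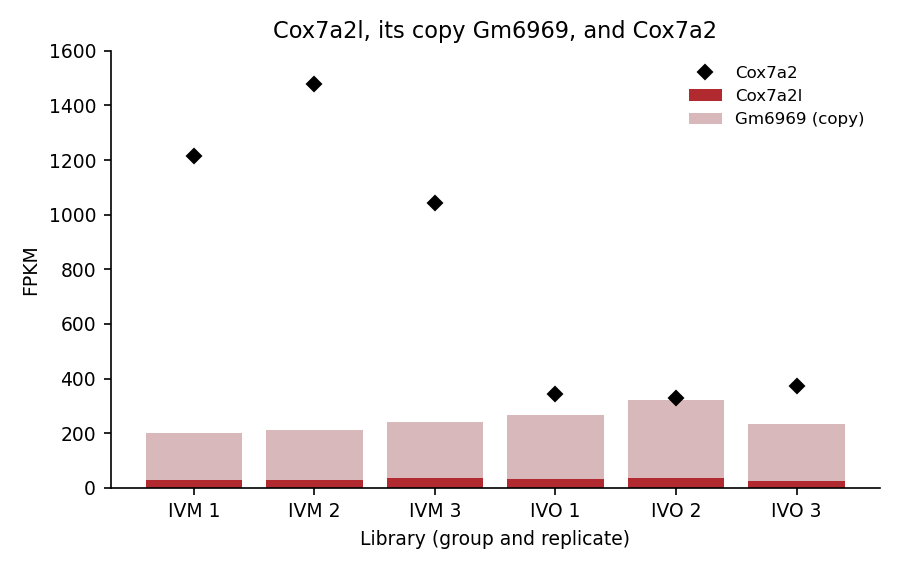
For each library on the x axis, bars stack the FPKM of Cox7a2l (dark) and of its copy Gm6969 (light), and diamonds give the FPKM of Cox7a2. Cox7a2 is at least 1042 FPKM in IVM and at most 373 FPKM in IVO, while the stacked sums span 200.3 to 241 FPKM and 233 to 320.5 FPKM.

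Subunit 6a is a regulatory subunit whose isoforms are Cox6a1, used in most tissues, and Cox6a2, known from heart and skeletal muscle. Cox6a1 (minus strand, chr5:115483701-115487050) had 1042, 562 and 828 FPKM in IVM and 221, 259 and 313 FPKM in IVO. The IVM libraries spread widely, yet all lay above the IVO libraries. The log2FC was -1.58 (SE 0.26, adjusted p = 0.00675 from limma), and it was no longer called with the gene-length trend removed (-0.89, adjusted p = 0.0585 from limma). Cox6a2 (minus strand, chr7:127804607-127805559) had 6.72, 3.59 and 3.89 FPKM in IVM and 2.36, 1.97 and 1.01 FPKM in IVO, the latter from only about 8 to 18 fragments. These groups did not overlap either, and the log2FC of -1.04 (SE 0.32) narrowly missed the call with an adjusted p of 0.0531 from limma. It passed with the trend in the variance left out (adjusted p = 0.0494 from limma) and over Ensembl genes only (adjusted p = 0.0473 from limma).

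Cox6a2 contributed 0.581% ± 0.0985 of the summed subunit 6a FPKM in IVM and 0.711% ± 0.369 in IVO (SD, n = 3 each). The log2 ratio of Cox6a1 to Cox6a2 differed by -0.55 between the groups, with overlapping libraries (exact permutation p = 0.3, adjusted 0.36), and ranged from -0.91 to -0.20 over the alternatives. A pseudogene copy of Cox6a1, Gm50432, 91.5% identical, had at most 3.06 FPKM in any library, and the call of Cox6a1 held with it added. Cox6a2 shares 70 exonic bases on the opposite strand with Itgad, listed at up to 2.58 FPKM in IVM and 0.36 FPKM in IVO, and the kit used does not mark strand.

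Subunit 4 binds adenine nucleotides and adjusts the activity of the enzyme. Cox4i1 is its general isoform, and Cox4i2 is known from lung and from cells at low oxygen. Cox4i1 (plus strand, chr8:121391505-121400950) had 63.7, 39.9 and 44.7 FPKM in IVM and 21.6, 18.8 and 22.8 FPKM in IVO, again without overlap. The log2FC of -1.17 (SE 0.23, adjusted p = 0.0123 from limma) was the smallest in size of the called isoform genes. It fell short of the threshold of 1 without IVM 1 (-0.97), with median-ratio scaling (-0.85) and with the gene-length trend removed (-0.65). Cox4i1 shares 514 exonic bases with Emc8 on the opposite strand, listed at 3.49 to 20.6 FPKM in IVM and 3.15 to 9.32 FPKM in IVO, and reads there cannot be told apart without strand.

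Cox4i2 (plus strand, chr2:152595625-152606959) had 8.40, 6.32 and 3.58 FPKM in IVM and 1.30, 0.47 and 0.46 FPKM in IVO. The IVO values rest on about 4 to 11 fragments and the IVM values on about 36 to 72. The log2FC was -1.999 (SE 0.35, adjusted p = 0.00823 from limma), which understates the change of so low a gene, and was -2.94 with a pseudocount of 0.1 in place of 1. Cox4i2 made up 10.9% ± 3.20 of the summed subunit 4 FPKM in IVM and 3.36% ± 2.02 in IVO (SD, n = 3 each). These shares did not overlap, but the log2 ratio of Cox4i1 to Cox4i2, computed with the pseudocount, did (difference 0.83, exact permutation p = 0.2, adjusted 0.3). The difference was 1.74 with a pseudocount of 0.1 and 0.95 with median-ratio scaling, both without overlap (exact permutation p = 0.1), and 0.34 without length normalization (exact permutation p = 0.3).

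Cox8a (minus strand, chr19:7192515-7194997), the general isoform of the smallest subunit, had the highest mean FPKM of the 10 genes in both groups. It had 1808, 1699 and 1767 FPKM in IVM and 1498, 1457 and 1537 FPKM in IVO. The libraries of each group lay close together and the groups did not overlap, yet the log2FC of -0.23 (95% interval -0.52 to 0.05, adjusted p = 0.214 from limma) was not called. It was 0.09 with median-ratio scaling, 0.48 (adjusted p = 0.0409 from limma) with the gene-length trend removed and -0.46 (adjusted p = 0.0423 from limma) without length normalization. Of its paralogs, the muscle isoform Cox8b was listed at 0 in all libraries. Cox8c, known from testis, had 4.76, 2.63 and 2.65 FPKM in IVM and 2.24, 2.15 and 0.26 FPKM in IVO, and its log2FC of -0.86 (SE 0.43, adjusted p = 0.194 from limma) was not called. Its values rest on about 13 to 19 fragments in IVM and 1 to 8 in IVO. The value in IVO 3 lies below the floor of 3 fragments, 0.782 FPKM. Cox8c was 0.189% ± 0.0638 of the subunit's sum in IVM and 0.105% ± 0.0759 in IVO (SD, n = 3 each).

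The sum of isoforms also differed between subunits. The mean FPKM sum in IVO was 0.296 of that in IVM for subunit 7a (Cox7a1, Cox7a2 and Cox7a2l), 0.326 for 6a and 0.393 for 4. With Gm6969 added, the ratio for 7a was 0.425, above that of subunit 4. The ratio was 0.650 for 6b, where Cox6b2 held most of the sum, and 0.851 for 8 (Cox8a, Cox8b and Cox8c). These ratios are descriptions, rest on the division by length and were not tested. The summed FPKM of all genes was 1.83e+06 to 2.11e+06 in IVM and 1.56e+06 to 1.64e+06 in IVO libraries. The ratios are not adjusted for this difference. In fragments, Cox6b2 had about 2886 to 4200 in IVM and 1851 to 2278 in IVO. Cox6b1 had about 2554 to 2915 and 329 to 530, so the ratio for 6b was lower in fragments than in FPKM. No ratio of sums was computed in fragments, so whether 6b stands apart from subunit 4 there is not settled.

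The order of the 10 genes by FPKM was similar at its ends and differed in the middle. In IVM it ran from Cox8a (1758 ± 55.1 FPKM, SD, n = 3) through Cox7a2 (1245 ± 219), Cox6b2 (1048 ± 104) and Cox6a1 (811 ± 240) to Cox6b1 (372 ± 52.9). Cox7a2 and Cox6b2 were not separated there, nor were Cox6b2 and Cox6a1. In IVO the order was Cox8a (1497 ± 40.3), Cox6b2 (859 ± 34.7), Cox7a2 (348 ± 23.1), Cox6a1 (264 ± 46.2) and Cox6b1 (65.2 ± 14.4), with no overlap between neighbours. Below these came Cox4i1 and Cox7a2l, in this order in IVM and in the reverse order in IVO, and then Cox4i2 and Cox6a2, whose ranges overlapped in both groups. The place of the short Cox6b2 rests on the division by length. In inferred fragments, Cox7a2 lay above Cox6b2 in both groups. It had about 8866 to 12908 beside 2886 to 4200 in IVM, and 2377 to 2769 beside 1851 to 2278 in IVO.

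Complex IV has 12 other subunit genes in the list used here. Of 10 tested, 4 (40%) were called lower in IVO, beside 17.9% of all tested genes, and none higher, with a median log2FC of -0.24. The 4 were Cox7c (-4.12, SE 0.28), Cox7b (-2.59, SE 0.30), Ndufa4 (-2.26, SE 0.21) and Cox6c (-1.82, SE 0.23), all nuclear-encoded small subunits with adjusted p from 6.53e-04 to 0.00304 by limma. Cox6c, one of the most abundant, had 2281, 2060 and 1418 FPKM in IVM and 587, 426 and 603 FPKM in IVO. Cox5a, named after its values were seen, had a log2FC of 0.92 (SE 0.16, adjusted p = 0.00898 from limma), below the threshold of 1. It was called higher in IVO with median-ratio scaling (1.24), equal sums (1.25), quantile normalization (1.42), the gene-length trend removed (1.53) and without IVO 3 (1.02). The 3 mitochondrially encoded core genes had log2FC from 0.47 to 0.64, and none was called, but mt-Co2 was called higher with the gene-length trend removed (1.22, adjusted p = 0.0461 from limma). Cox8b and Cox7b2 were at or near 0 and were not tested.

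**Figure D4:**
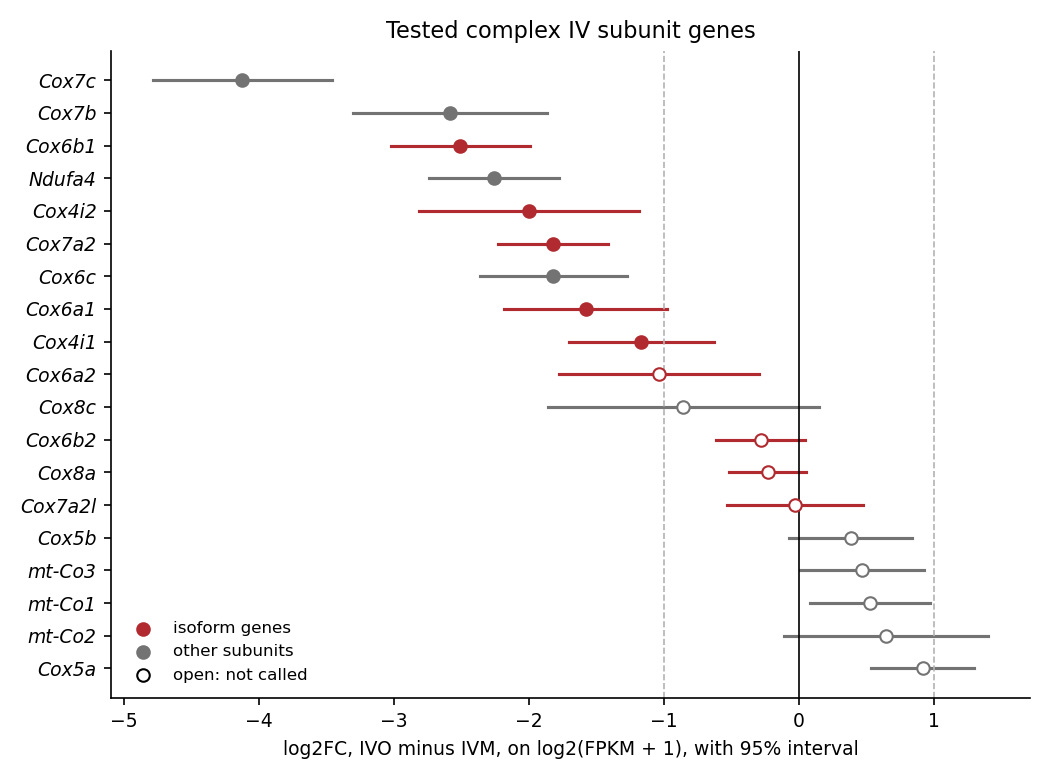
The x axis gives the log2FC (IVO minus IVM) of each tested complex IV subunit gene with its 95% interval, with isoform genes in red, other subunits in gray and genes not called as open points. Points run from Cox7c at -4.12 to Cox5a at 0.92, and the isoform genes nearest to 0 are Cox6b2 (-0.28), Cox8a (-0.23) and Cox7a2l (-0.03).

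Of 23 assembly factors and partners of complex IV 18 were tested, and 4 (22.2%) were called lower and none higher, with a median log2FC of -0.50. This share is near the 17.9% of all tested genes. The 3 with the largest log2FC were Cox17, which delivers copper to the enzyme (-1.87, SE 0.25), Lrpprc, which stabilizes mitochondrial mRNAs (-1.67, SE 0.18), and Pet100, an assembly factor (-1.18, SE 0.30). The other called gene, named after its values were seen, was Cox16 (-1.01, SE 0.21). Of the 3 genes listed as regulators of Cox4i2, Chchd2 was called lower (132, 54.0 and 79.8 FPKM in IVM and 8.67, 8.62 and 10.5 FPKM in IVO, log2FC -3.04, SE 0.33, adjusted p = 0.00189 from limma). Rbpj had a log2FC just short of the threshold (-0.999, SE 0.16), and Cxxc5 was not tested. Of the pair of cytochrome c genes, neither Cycs nor Cyct was called, with log2FC of 0.53 and -0.24.

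For each called isoform gene, the nearest patterns across the 6 libraries were sought among 10381 tested Ensembl genes, by the root mean square difference of log2(FPKM + 1) after centring each gene. The nearest to Cox6b1 were Ndufb9 (0.0578), Atox1 (0.101) and Ndufa6 (0.101), of which Ndufb9 and Ndufa6 are complex I subunits and Atox1 a copper chaperone. The nearest to Cox7a2 were Eloc (0.0620), Rpl34-ps1 (0.0851) and Cib3 (0.0896). Those to Cox6a1 were Tuba1c (0.0808), Daglb (0.0961) and Ankrd24 (0.0999), and those to Cox4i1 were Glrx5 (0.0643), Rpl7 (0.0657) and Oit1 (0.0717). Cox4i2 had the least close neighbours, BC031181 (0.133), Nmu (0.157) and Ift22 (0.161). These are descriptions over 6 libraries, in which any gene with a like group difference lies near.

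Among all rows of the matrix, 14 others carried the same KEGG ortholog as an isoform gene, and 11 of them were listed at 0 in every library. The 3 highest were Gm6969, Cox8c and Gm50432, described above.

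Across the 19 alternative settings, Cox6b1 and Cox7a2 were called in every one, and Cox4i2 in each of the 18 in which it was tested. Cox6a1 was called in 17 of 19 and Cox4i1 in 13 of 19. Cox6b2, Cox7a2l and Cox8a were called in none. With the gene-length trend removed, 3 isoform genes were called (Cox6b1, Cox7a2 and Cox4i2).

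**Figure D5:**
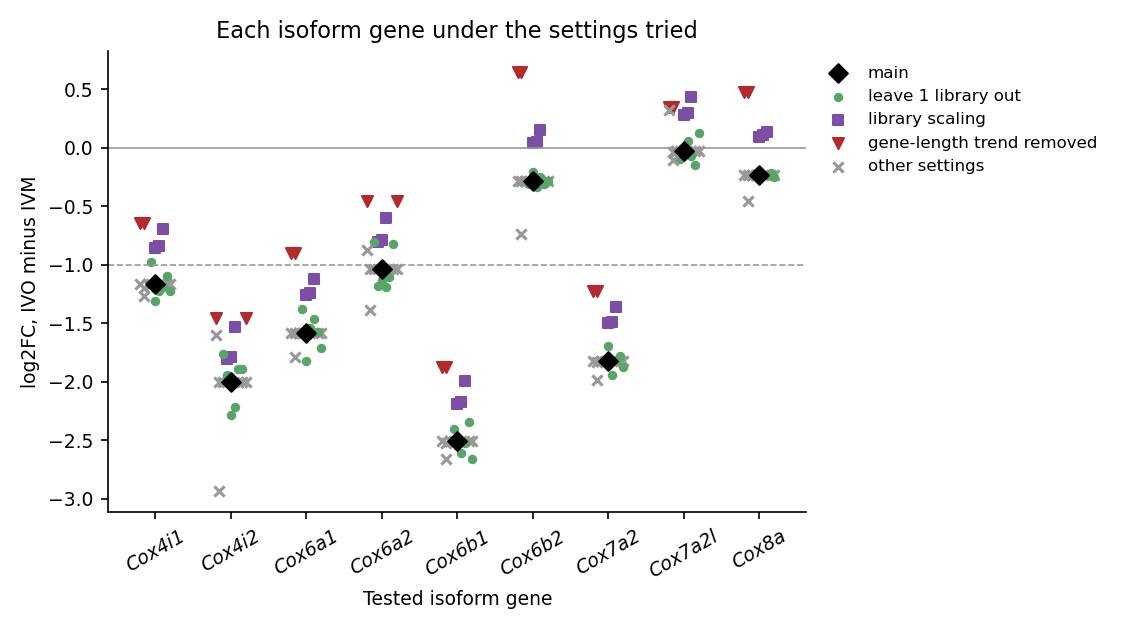
The y axis gives the log2FC (IVO minus IVM) of each tested isoform gene (x axis) in the main comparison (diamonds) and under each alternative (other symbols). Cox6b1 stays between -2.66 and -1.87 and Cox7a2 between -1.99 and -1.22, while Cox6b2, Cox7a2l and Cox8a lie on both sides of 0.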

How the data were processed

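RNA of the 6 pooled samples was amplified with SMART-Seq v4, made into libraries with Nextera XT and sequenced on a NovaSeq. Read filtering by the authors used SeqPrep and Sickle and alignment to GRCm39 used HISAT2 2.1.0, after which they deposited FPKM per gene from RSEM 1.3.3 (DESeq2 1.24.0 was their count test, and no counts were used here). Groups and replicate numbers came from the sample titles.

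The FPKM entered as deposited. Genes with a mean of at least 1 FPKM were tested with limma 3.58.1 under R 4.3.3 (lmFit and eBayes with trend) on log2(FPKM + 1), with the group alone and Benjamini-Hochberg adjustment over all tested genes. A log2FC on this scale understates the change of low genes. Paralog ratios were differences of log2(FPKM + 1) within a library. Tested on simulated data, the fit called 66 of 100 genes changed by 2 and 90 of 100 changed by 3 on the log2 scale, and 6 of 18618 unchanged genes. The simulation held 200 changed genes and no group difference in library scale or fragment length. It therefore checks the fit and gives no rate of false calls for these data.

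Depth and fragment length were inferred from the steps of low FPKM values. The share of these values within 0.1 of a whole fragment was 61.2% to 65.9% per library, where 20% would be by chance, so single fragment numbers are approximate. The inference used genes of 500 to 4000 bases, so fragment numbers of shorter ones (Cox6b2, Cox7a1, Cox8c and Gm6969) are less certain. Floors cover counting error only. Copies were annotated transcripts at least 90% identical over at least 80% of a coding sequence. Positions are those of the whole gene in the GRCm39 annotation. Sequences and exon counts of the isoform genes are those of the first numbered transcript, and shared exonic bases count the exons of all transcripts. Pairs of sequences were aligned with Biopython 1.88. Tables were made with Python 3.11.15 and pandas 2.3.3.

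All isoform genes are named, with other subunits and regulators where called or paralogs of a member, the 3 assembly factors with the largest log2FC, the 3 highest rows of the same orthologs and the 3 nearest patterns. The isoform genes and lists were chosen with earlier results of these data known. Alternatives changed the pseudocount (0.1), the filter (none, or a mean of at least 5 FPKM), the library scaling (median ratio, equal sums, quantile), the variance trend (left out), the replicate block (added), the gene-length trend (removed by lowess, span 0.3), the genes tested (Ensembl only) and the libraries (each left out in turn). Adding copies, and the fit and the shares of fragment numbers without length normalization, were chosen after seeing the data. Protein sequences were not used here.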

Additional observations from a re-analysis of the deposited data

How the results depend on the processing

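The call count of the isoform genes, 5, became 3 with the gene-length trend removed, with or without the replicate block, and was 4 to 5 when 1 library was left out. That of the other subunits was 4 to 5 with 1 library left out, 4 lower and 1 higher under each of the 3 scalings, 6 (4 lower and 2 higher) with the length trend removed, and 3 lower and 1 higher with the block as well. Cox4i1 lost its call with median-ratio scaling (-0.85), equal sums (-0.84), quantile normalization (-0.70) and the length trend removed (-0.65 with and without the block), and ranged from -1.31 to -0.97 with 1 library left out. Cox6a1 lost it with the length trend removed (-0.89 with and without the block), and Cox6a2 gained it at -1.04 without the variance trend and over Ensembl genes only. With median-ratio scaling, equal sums, quantile normalization and the length trend removed (the same with the block), the sign reversed for Cox6b2 (0.0423, 0.0543, 0.15 and 0.65), Cox8a (0.0944, 0.11, 0.13 and 0.48) and Cox7a2l (0.29, 0.30, 0.44 and 0.35). Cox7a2l also reversed with copies added (0.32) and ranged from -0.15 to 0.13 with 1 library left out. The difference in the ratio of Cox7a1 to Cox7a2l reversed to 0.0364 without length normalization. The causes were not tested. Over all genes, 3366 calls were lower and 114 higher, against 2106 and 393 after median-ratio scaling, 1580 and 1097 after quantile normalization and 1314 and 909 with the length trend removed, which gave 2223 calls in all. The count of all calls was 977 with the trend removed and the block, and 2363 to 3304 with 1 library left out.

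Samples with the same replicate number deviated with correlations of -0.06, -0.02 and -0.11, and those with different numbers with -0.02 to 0.08. These values show no pairing by number but cannot exclude one, and the titles state none. With the replicate block alone, 5 isoform genes and 4 other subunits were called and 2991 genes in all, and the block changed no call of an isoform gene. Within-number differences of the paralog ratios had exact sign-flip p of 0.25, the smallest that 3 pairs allow. Depth limits Cox7a1, and Cox4i2, Cox6a2 and Cox8c in IVO, to a few fragments. With a mean of at least 5 FPKM required, Cox4i2 and Cox6a2 were not tested.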
